A study of Homo sapiens with 4 samples.

Results

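The mRNAs described here are the 10 genes of a pathway that slows protein synthesis under stress: the 4 kinases of the translation factor eIF2 alpha (EIF2AK1, EIF2AK2, EIF2AK3 and EIF2AK4), the 2 regulatory subunits of the phosphatase that reverses their action (PPP1R15A and PPP1R15B), and the transcription factors and pseudokinase downstream of it (ATF4, ATF3, DDIT3 and TRIB3). They were picked by symbol for their role in the pathway, with earlier results of these data known, and are 10 of the 58812 genes in the count files. All 10 passed the filter on low counts. RNA sequencing was done on A549 cells, a human lung carcinoma epithelial line, 24 hr after transfection with 1 µg of plasmid. The SAMD9 group (2 libraries) received the SAMD9-Myc-DDK plasmid, which carries a tagged SAMD9, and the empty vector group (2 libraries) received pCMV6-Entry without an insert. Both groups were wild-type cells exposed to plasmid DNA, so no untransfected cells enter the comparison, and each library averages cells that did and did not take up plasmid. In such bulk RNA, a change in the share of cells that express a gene and a change in its RNA per cell cannot be told apart. The comparison of SAMD9 with empty vector asks how the transcriptome responds to SAMD9, an interferon-inducible antiviral protein.

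Phosphorylated eIF2 alpha blocks its own exchange factor eIF2B, which lowers translation of most mRNAs and favours a few with short reading frames upstream of the coding region, ATF4 among them. EIF2AK2 (PKR) is activated by double-stranded RNA, EIF2AK3 (PERK) by unfolded proteins in the endoplasmic reticulum, EIF2AK4 (GCN2) by uncharged tRNA, and EIF2AK1 (HRI) by low heme and mitochondrial stress. ATF4 induces genes of amino acid supply and, with its partners, ATF3, DDIT3 (CHOP), TRIB3 and PPP1R15A (GADD34). Phosphorylation and protein levels were not measured in these libraries.

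Library totals were 39670083 and 30750029 counts for SAMD9 and 29301854 and 31434339 for empty vector. SAMD9 itself had 220123 and 184350 counts in the SAMD9 libraries and 444 and 400 in the empty vector libraries, and counts do not separate plasmid from endogenous RNA. Of 6 epithelial markers, 5 were tested and 2 were higher with SAMD9. Their summed level was 8102 and 7894 CPM (counts per 1000000, scaled by TMM) with SAMD9 and 6277 and 7081 CPM with empty vector. KRT19 had between 5 and 10 counts in each library. Markers of fibroblasts summed to 6.22 and 6.43 CPM with SAMD9 and 1.85 and 2.72 CPM with empty vector, with 1 of 6 called higher and DCN at 0 in all 4 libraries. Leukocyte markers summed to 6.57 and 6.53 CPM with SAMD9 and 5.75 and 5.53 CPM with empty vector. Endothelial markers summed to 1.13 and 1.22 CPM with SAMD9 and 1.53 and 1.28 CPM with empty vector. Only 2 leukocyte markers and 1 endothelial marker passed the filter on low counts. The part of these markers in the results was not tested.

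The promoters of EIF2AK2, PPP1R15A and ATF3 are shown because these were the 3 genes with the largest rises. Each held at least 1 of 5 motifs that were searched for. So did the promoters of EIF2AK3 and PPP1R15B, which did not rise and whose windows are not shown. The share of all windows with at least 1 of the 5 motifs was not computed. The promoters shown are RefSeq windows (GRCh38.p14) from 250 bases before to 50 bases after an annotated start site. They are printed 5′ to 3′ on the strand of the gene, with motif matches in capitals. The EIF2AK2 window lies on the minus strand at chr2:37156931-37157230, the PPP1R15A window on the plus strand at chr19:48872171-48872470, and the ATF3 window on the plus strand at chr1:212565157-212565456, the upstream one of 2 ATF3 start sites in the table.
EIF2AK2: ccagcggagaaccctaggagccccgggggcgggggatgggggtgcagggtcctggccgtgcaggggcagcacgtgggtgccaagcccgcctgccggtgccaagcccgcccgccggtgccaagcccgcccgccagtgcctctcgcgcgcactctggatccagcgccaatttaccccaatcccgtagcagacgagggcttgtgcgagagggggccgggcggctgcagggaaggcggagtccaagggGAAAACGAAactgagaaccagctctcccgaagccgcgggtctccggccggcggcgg
PPP1R15A: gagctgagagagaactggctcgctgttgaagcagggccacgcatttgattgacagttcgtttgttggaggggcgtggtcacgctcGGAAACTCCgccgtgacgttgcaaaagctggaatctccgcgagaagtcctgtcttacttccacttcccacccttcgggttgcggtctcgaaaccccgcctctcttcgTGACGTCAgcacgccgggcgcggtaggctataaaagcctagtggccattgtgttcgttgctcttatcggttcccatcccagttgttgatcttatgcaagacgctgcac
ATF3: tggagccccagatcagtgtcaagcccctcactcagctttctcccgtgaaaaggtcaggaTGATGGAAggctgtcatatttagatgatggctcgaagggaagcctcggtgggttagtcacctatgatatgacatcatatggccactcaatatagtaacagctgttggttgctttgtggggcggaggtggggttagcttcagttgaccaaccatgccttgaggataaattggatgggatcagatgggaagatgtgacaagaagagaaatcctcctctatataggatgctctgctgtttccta
The capitals in the EIF2AK2 window match GAAANNGAA, a part of the interferon-stimulated response element, from base -6 to base 3 around the start site. The PPP1R15A window holds TGACGTCA, the CRE bound by ATF and CREB factors, from base -58 to base -51, and, read on the other strand, GGANTTTCC, a part of the NF-kB site, from base -165 to base -157. The ATF3 window held TGATGNAA, the C/EBP-ATF response element, from base -191 to base -184. The window of the other ATF3 start site, at chr1:212614768-212615067, held none of the 5 motifs.

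Windows were found for 9 of the 10 genes (14 windows), and EIF2AK1 was not matched. On either strand, GAAANNGAA occurred in 8.107% of the 35116 promoter windows of that table, TGACGTCA in 1.848%, TGATGNAA in 3.617% and GGANTTTCC in 1.643%. The interferon motif was found in 1 of the 9 genes (EIF2AK2) and the CRE in 1 (PPP1R15A). TGATGNAA was found in 2, ATF3 and PPP1R15B, and GGANTTTCC in 2, PPP1R15A and EIF2AK3, so both were also present in genes that did not rise. The interferon and NF-kB motifs were first searched in forms 1 base longer and were shortened after those matches had been seen. The longer interferon motif, in 3.574% of all windows, again matched EIF2AK2 alone among the 9 genes, whereas the longer NF-kB motif, in 0.558% of all windows, matched none of them, so the NF-kB matches in PPP1R15A and EIF2AK3 exist for the shorter form only. The GAS motif TTCNNNGAA, in 7.657% of all windows, was in none of the 9 genes, which says only that these letters are not in these windows. No matches overlapped, and the gene counts do not show which start site was used.

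The mRNA leaders were also read for upstream start codons. In GENCODE 29, 8 of the 10 genes had at least 1 AUG upstream of the coding region in every principal coding transcript, against 45.1% of 19526 coding genes. ATF4 had between 3 and 7 upstream AUGs over its 3 principal transcripts, EIF2AK3 had 5, TRIB3 had 3, DDIT3 had 2 or 3, PPP1R15A and PPP1R15B had 2 each, EIF2AK2 had 1, and ATF3 had 1 or 5 depending on the transcript. EIF2AK1 and EIF2AK4, with leaders of 147 and 43 bases, had none. Counts per gene carry no information on which reading frame was translated.

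Among the 10 genes, 4 were higher with SAMD9 (EIF2AK2, PPP1R15A, ATF3 and ATF4), 3 were lower (TRIB3, EIF2AK4 and PPP1R15B) and 3 were not called (EIF2AK1, EIF2AK3 and DDIT3), by edgeR's quasi-likelihood test at an adjusted p below 0.05. Over all 19814 genes tested, 27.5% were called, 15.3% higher and 12.2% lower. The median log2 fold change was -0.06 over the 10 genes and -0.01 over all genes tested. EIF2AK2, PPP1R15A and ATF3 rose by between 2.31 and 2.46 on the log2 scale, whereas ATF4 rose by 0.25. Of all genes tested, 3.3% were called with a log2 fold change of at least 2. When libraries were scaled by their totals and not by TMM, the log2 fold change of the median gene moved by -0.19, 3 of the 10 genes were higher and 6 lower, and 38.5% of all genes were called. Of those calls 25.9% were higher, against 55.7% with TMM. DESeq2 called 4 of the 10 higher and 2 lower, against 20.4% of all genes. The share of all genes called was 19.6% without SAMD9 replicate 1, 17.5% without SAMD9 replicate 2, 24.5% without empty vector replicate 1 and 25.3% without empty vector replicate 2.

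**Figure D1:**
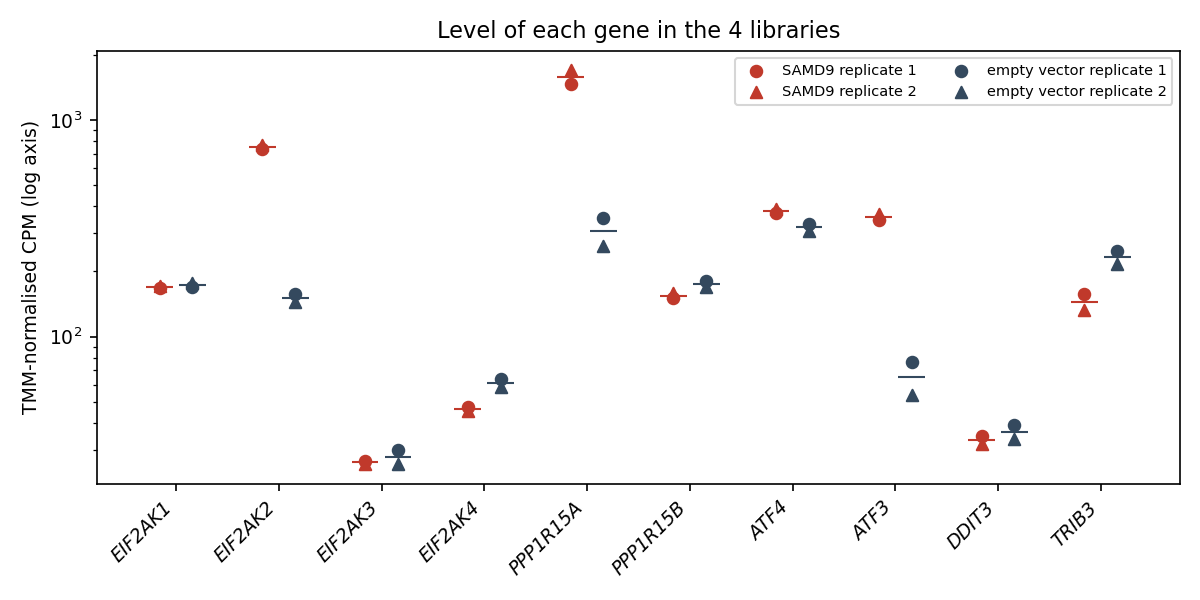
TMM-normalised CPM (log axis) of the 10 genes in the SAMD9 libraries (red) and the empty vector libraries (dark blue), with circles for replicate 1, triangles for replicate 2 and a line at each group's mean. The SAMD9 libraries stand far above the empty vector libraries for EIF2AK2, PPP1R15A and ATF3, and below them for TRIB3.

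Of the kinases, the double-stranded RNA sensor EIF2AK2 (ENSG00000055332, chromosome 2, 37099210 to 37157065, minus strand, GRCh38) was the only one that rose. It had 27353 and 21915 counts in the SAMD9 libraries and 4925 and 4846 in the empty vector libraries. Scaled by TMM, its level was 734 and 765 CPM with SAMD9 and 157 and 145 CPM with empty vector. The groups were far apart and the replicates of each were close. EIF2AK2 averaged 749 ± 22.6 CPM with SAMD9 and 151 ± 8.92 CPM with empty vector (SD, n = 2 each), a 4.96-fold rise (log2 fold change 2.31, SE 0.06, edgeR adjusted p = 1.19e-18). Of all genes tested, 2.75% had a larger log2 fold change.

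EIF2AK4, the sensor of uncharged tRNA (chromosome 15, 39934146 to 40035591, plus strand), fell. Its level was 47.3 and 45.4 CPM in the SAMD9 libraries and 64.0 and 58.6 CPM in the empty vector libraries, so both SAMD9 libraries were lower. The log2 fold change was -0.40 (SE 0.08, edgeR adjusted p = 0.000558). EIF2AK1, the heme-regulated kinase (chromosome 7, 6022244 to 6059230, minus strand), had 168 and 172 CPM with SAMD9 and 170 and 178 CPM with empty vector. These groups overlapped, and the log2 fold change of -0.03 (SE 0.06) was not called (edgeR adjusted p = 0.757). EIF2AK3, the kinase of the endoplasmic reticulum (chromosome 2, 88556741 to 88627576, minus strand), had the lowest counts of the 4, between 739 and 996 in each library. Its level was 26.7 and 25.8 CPM with SAMD9 and 29.9 and 25.8 CPM with empty vector, and it was not called (-0.09 on the log2 scale, SE 0.10, adjusted p = 0.612). The groups overlapped. Under total-count scaling EIF2AK1 and EIF2AK3 were called lower (log2 fold changes of -0.22 and -0.27, adjusted p = 0.00629 and 0.0434). Without empty vector replicate 1 the value of EIF2AK3 was 0.027, and without empty vector replicate 2 that of EIF2AK1 was 0.0026, neither of them called. On the opposite strand, AIMP2 shares 532 exonic bases with EIF2AK1 (9.59% of its length), and an unnamed gene with at most 6 counts in a library shares 781 with EIF2AK3 (14.4%).

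Per kilobase of exon, the order of the kinases changed. The length used was that of the annotated exons, 10753 bases for EIF2AK2, 10713 for EIF2AK4, 5550 for EIF2AK1 and 5434 for EIF2AK3. The lengths of the transcripts present are not known, so levels compared between genes depend on this annotation. EIF2AK2 made up 63.3% and 64.0% of the summed CPM per kilobase of the 4 kinase genes in the SAMD9 libraries and 25.8% and 24.2% in the empty vector libraries. EIF2AK1 held 28.0% and 27.9% with SAMD9 and 54.0% and 57.5% with empty vector, where it was the most abundant of the 4. The share of EIF2AK2 was 38.7 percentage points higher with SAMD9, and an exact two-sided permutation test gave p = 0.333, the smallest p that 2 libraries against 2 allow. With counts not divided by length, the difference in share was 39.1 percentage points. The summed level of the 4 genes was 108 and 111 CPM per kilobase with SAMD9 and 56.8 and 55.7 with empty vector. Without EIF2AK2, the other three summed to 39.5 and 40.01 CPM per kilobase with SAMD9 and 42.1 and 42.2 with empty vector.

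**Figure D2:**
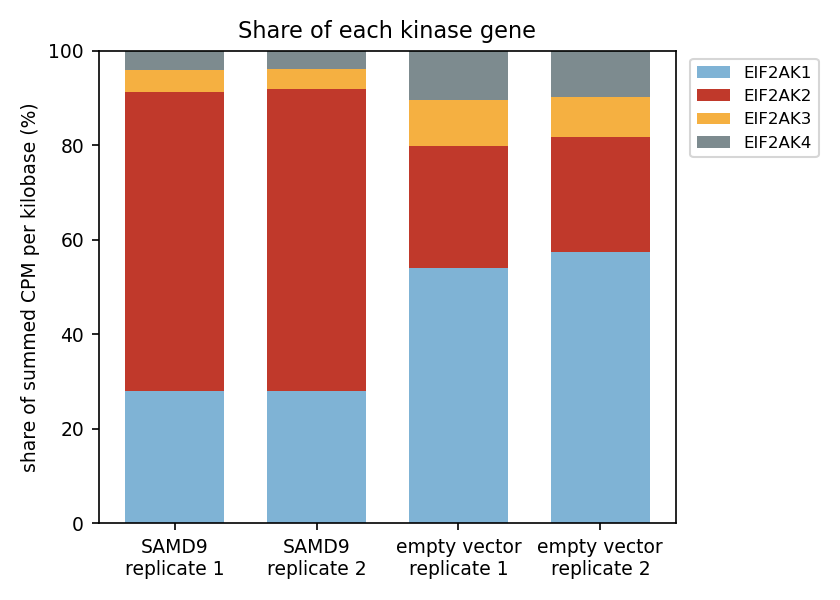
Share of each kinase gene in the summed TMM-normalised CPM per kilobase of the 4 kinase genes, in percent, 1 bar for each library. The EIF2AK2 segment takes 63.3% and 64.0% of the SAMD9 bars and 25.8% and 24.2% of the empty vector bars.

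The phosphatase subunits went different ways. PPP1R15A, the stress-inducible subunit that directs protein phosphatase 1 to eIF2 alpha (ENSG00000087074, chromosome 19, 48872392 to 48876057, plus strand), had 54609 and 48470 counts with SAMD9 and 11053 and 8813 with empty vector. Its level was 1464 and 1693 CPM with SAMD9 and 353 and 263 CPM with empty vector. The replicates of PPP1R15A differed more than those of EIF2AK2, by 0.21 on the log2 scale within SAMD9 and by 0.42 within empty vector, but the groups were well separated. PPP1R15A rose 5.12-fold (log2 fold change 2.36, SE 0.09, edgeR adjusted p = 2.19e-15).

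PPP1R15B, the constitutive subunit (chromosome 1, 204403387 to 204411791, minus strand), had 151 and 159 CPM with SAMD9 and 180 and 169 CPM with empty vector. Both SAMD9 libraries were lower, at -0.18 on the log2 scale (SE 0.06, adjusted p = 0.0401). Under total-count scaling it stood at -0.37 (adjusted p = 7.14e-05). The call ended with DESeq2 (adjusted p = 0.0517), with replicate number as a block (0.0573) and without SAMD9 replicate 1 (0.377), SAMD9 replicate 2 (0.139) or empty vector replicate 1 (0.135). Per kilobase, PPP1R15A was 16.4 and 18.05 times as abundant as PPP1R15B in the SAMD9 libraries and 3.31 and 2.63 times in the empty vector libraries (exact two-sided permutation p = 0.333, the smallest possible).

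ATF4, the transcription factor at the centre of the pathway (ENSG00000128272, chromosome 22, 39519695 to 39522685, plus strand), rose slightly. It had 373 and 388 CPM with SAMD9 and 333 and 307 CPM with empty vector, with no overlap. The log2 fold change was 0.25 (SE 0.06, edgeR adjusted p = 0.00247), a 1.19-fold rise. The call ended under total-count scaling (0.063, adjusted p = 0.439) and without SAMD9 replicate 2 (0.23, adjusted p = 0.061). Of the 31-base words in ATF4 transcripts, 29.7% also occur in other genes, mostly in the pseudogene ATF4P3, which had 449 and 328 counts with SAMD9 and 239 and 290 with empty vector, and how reads that match both were counted is not given.

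ATF3, a stress-induced factor of the same family that is also an immediate early gene (ENSG00000162772, chromosome 1, 212565334 to 212620777, plus strand), showed the largest rise of the 10 genes. It had 12892 and 10508 counts with SAMD9 and 2379 and 1803 with empty vector, or 346 and 367 CPM with SAMD9 and 76.0 and 53.9 CPM with empty vector. The SAMD9 libraries were close to each other, and the empty vector libraries differed by 0.50 on the log2 scale, still far below SAMD9. ATF3 rose 5.49-fold (log2 fold change 2.46, SE 0.10, adjusted p = 4.48e-15). None of its 31-base words occurred in another gene.

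DDIT3, which encodes the pro-apoptotic factor CHOP (ENSG00000175197, chromosome 12, 57516588 to 57520517, minus strand), was not called. It had 34.9 and 31.9 CPM with SAMD9 and 39.2 and 33.7 CPM with empty vector, and the groups overlapped. The log2 fold change was -0.12 (SE 0.10, adjusted p = 0.392), and under total-count scaling it was -0.31 (adjusted p = 0.0147). It was -0.011 without empty vector replicate 1, -0.058 without SAMD9 replicate 2, -0.19 without SAMD9 replicate 1 and -0.22 without empty vector replicate 2, and was called in none of these 4 fits (adjusted p between 0.118 and 0.962). MARS1 on the opposite strand shares 355 exonic bases, 30.1% of the DDIT3 length, and the strand setting of the counting is not given, so reads there cannot be assigned to either gene. MARS1 itself was not called (0.01 on the log2 scale, SE 0.07, adjusted p = 0.921), and under total counts it stood at -0.18 (adjusted p = 0.0408).

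TRIB3, a pseudokinase that is induced by ATF4 and CHOP and dampens their activity (ENSG00000101255, chromosome 20, 362835 to 397559, plus strand), fell the most of the 10. It had 5877 and 3800 counts with SAMD9 and 7795 and 7280 with empty vector, or 158 and 133 CPM with SAMD9 and 249 and 218 CPM with empty vector. Both SAMD9 libraries lay below both empty vector libraries. The log2 fold change was -0.68 (SE 0.08, adjusted p = 3.27e-07), and 8.34% of all genes tested had a lower one.

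**Figure D3:**
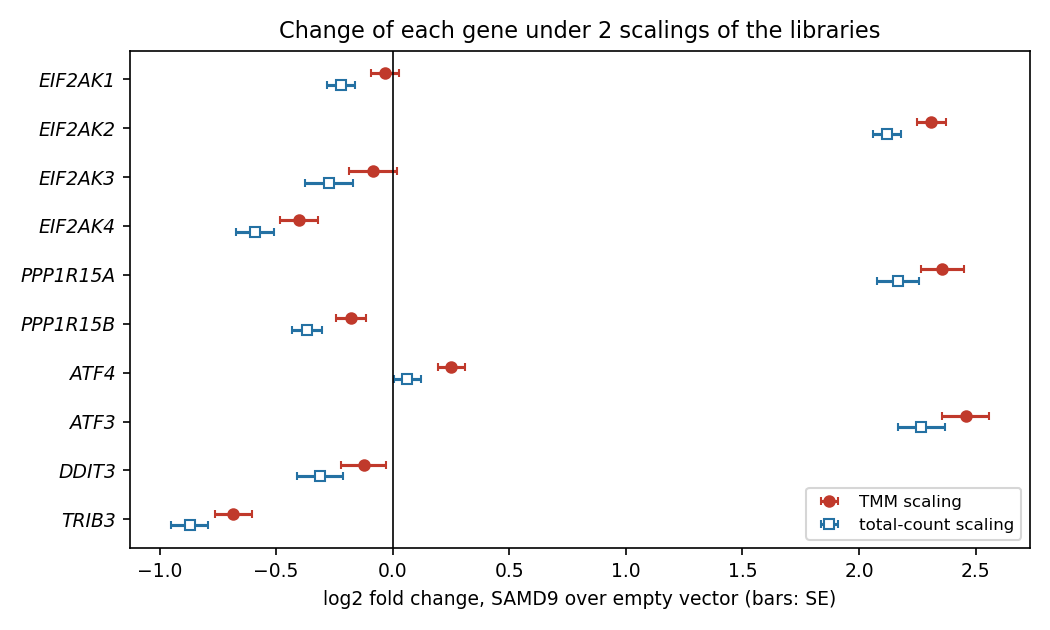
Log2 fold change of the 10 genes, SAMD9 over empty vector, with SE bars, under TMM scaling (filled red circles) and total-count scaling (open blue squares). EIF2AK2, PPP1R15A and ATF3 stay above 2 under both scalings, ATF4 moves to 0.063 under total counts, and TRIB3 and EIF2AK4 are below 0 under both.

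Relative to ATF4, ATF3 mRNA per kilobase stood at 0.577 and 0.588 in the SAMD9 libraries and 0.142 and 0.109 in the empty vector libraries. TRIB3 stood at 0.309 and 0.250 of ATF4 with SAMD9 and 0.548 and 0.520 with empty vector. DDIT3 stood at 0.200 and 0.175 with SAMD9 and 0.251 and 0.235 with empty vector. None of these ratios overlapped between the groups, although DDIT3 itself did in CPM, and all ratios share ATF4 as denominator. The exact permutation p was 0.333 for each, the smallest possible. That p cannot pass 0.05 with 2 libraries against 2, so these ratios are given as values only.

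Ordered by mean CPM per kilobase, the SAMD9 libraries had PPP1R15A first (510 ± 52.3), then ATF4 (151 ± 4.41), ATF3 (88.2 ± 3.73), EIF2AK2 (69.7 ± 2.10) and TRIB3 (42.3 ± 5.12; SD, n = 2 for each). EIF2AK1 (30.6), PPP1R15B (29.6) and DDIT3 (28.3) followed, and each of them overlapped its neighbour in that order. EIF2AK3 (4.83) and EIF2AK4 (4.33) were last and did not overlap. Their order rests on the exon lengths used, since in CPM EIF2AK4 (46.3) stood above EIF2AK3 (26.3) with SAMD9. In the empty vector libraries ATF4 led (127 ± 7.37), followed by PPP1R15A (99.7 ± 20.6) and TRIB3 (68.0 ± 6.51; SD, n = 2 for each). There PPP1R15B (33.5), EIF2AK1 (31.3) and DDIT3 (30.95) came next, with DDIT3 overlapping both of the others. ATF3 (16.1) and EIF2AK2 (14.1) overlapped, as did EIF2AK4 (5.72) and EIF2AK3 (5.13).

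The genes with profiles most like those of the 3 large rises were found by the Euclidean distance between log2 CPM profiles centred on each gene's mean, over the 4 libraries. For EIF2AK2 they included WARS1 (distance 0.08) and NCOA7 (0.09). For PPP1R15A they were PLA2G4C (0.06), LIFR (0.10) and ATF3 (0.14). For ATF3 they were CXCL8 (0.11), KLF4 (0.14) and PPP1R15A (0.14). With 2 groups of 2 libraries, closeness mostly means a like fold change.

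The kinases act on eIF2, and eIF2B is the exchange factor that phosphorylated eIF2 blocks. Of the 8 genes of eIF2 and eIF2B, 1 rose (EIF2S2, the beta subunit of eIF2, by 0.27 on the log2 scale, SE 0.06, adjusted p = 0.00215) and 7 were not called, with a median of 0.06. That is 12.5% called, against 27.5% of all genes tested. The call of EIF2S2 ended without SAMD9 replicate 2 (adjusted p = 0.0803) and under total-count scaling (0.316), where 3 of the 8 genes were lower. EIF2S1, which encodes eIF2 alpha itself, was not called (0.07 on the log2 scale, SE 0.06, adjusted p = 0.465). The count was 0 without SAMD9 replicate 2 and 2, both higher, with DESeq2 or without either empty vector library.

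Of 9 regulators of the kinases, 2 rose and 7 were not called, with a median of -0.03. The 22.2% called is near the 27.5% of all genes tested. ADAR, which edits double-stranded RNA and restrains PKR, had 60909 and 48462 counts with SAMD9 and 13669 and 14338 with empty vector. It rose by 1.94 (SE 0.05, adjusted p = 1.8e-18), and PRKRA, the activator of PKR, had 0.02 (SE 0.10, adjusted p = 0.929). HSPA5, the chaperone BiP that binds PERK, rose by 0.29 (SE 0.07, adjusted p = 0.0024). HSPA5 stood at 0.45 without empty vector replicate 1, at 0.15 without empty vector replicate 2, and was not called with DESeq2 (adjusted p = 0.195) or under total counts (0.264). Under total counts 1 regulator was higher and 4 were lower, without empty vector replicate 2 there were 2 and 2, and with DESeq2 1 was higher.

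Among 14 genes listed as partners of ATF4 and related bZIP factors, 10 rose and 2 fell, with a median of 0.77. Factors of the bZIP family bind DNA as pairs, and NUPR1, counted among the 10 rises, is not one of them. The share called was 85.7%, against 27.5% of all genes tested. Under total-count scaling 9 rose and 3 fell. BATF2 went furthest, with 8040 and 6135 counts in the SAMD9 libraries and 93 in each empty vector library, a rise of 6.22 on the log2 scale (SE 0.10, adjusted p = 5.24e-23). BATF3 rose by 2.05 (SE 0.15). CEBPA (-0.59, SE 0.19) and JDP2 (-0.36, SE 0.10) fell. JDP2 was not called without SAMD9 replicate 1 (adjusted p = 0.0816) or empty vector replicate 1 (0.0707). CEBPA was not called with DESeq2 (adjusted p = 0.124), without SAMD9 replicate 1 (0.218) or without empty vector replicate 2 (0.159). Without SAMD9 replicate 1 none of the 14 was lower, and DESeq2 or leaving out empty vector replicate 1 left 1 lower. Of the named partners of ATF4 in this list, CEBPB rose by 0.86 (SE 0.06) and CEBPG had -0.15 (SE 0.07, adjusted p = 0.143). CEBPG was called lower under total counts (-0.33, adjusted p = 0.000663) and without empty vector replicate 2 (-0.24, adjusted p = 0.00177). CEBPB, CEBPG, NUPR1, EIF2S1, PRKRA and MARS1 were named after their values were seen.

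Of 21 ATF4 targets in amino acid supply, 2 rose, 8 fell and 11 were not called, with a median of -0.17. Called genes made up 47.6% of this list and 27.5% of all genes tested, where 12.2% were called lower. SLC1A4, a transporter of neutral amino acids, fell by 0.65 on the log2 scale (SE 0.09, adjusted p = 8.37e-06) and SLC7A11, the cystine transporter, fell by 0.63 (SE 0.06, adjusted p = 2.5e-08). The glycine transporter SLC6A9 rose by 0.96 (SE 0.10, adjusted p = 1.14e-07). SLC1A5, the glutamine transporter, was called at 0.15 (SE 0.06, adjusted p = 0.0476), but not with replicate number as a block (0.0636), with no filter on counts (0.0728), or when SAMD9 replicate 1 (0.189) or SAMD9 replicate 2 (0.328) was left out, and it stood at -0.037 under total counts. ASNS, the asparagine synthetase often used as a readout of ATF4 and named after its value was seen, had -0.26 (SE 0.09, adjusted p = 0.0334). ASNS was not called with DESeq2 (adjusted p = 0.0816), without SAMD9 replicate 2 (0.199) or without empty vector replicate 1 (0.546, log2 fold change -0.085), and it stood at -0.41 without empty vector replicate 2 and -0.45 under total counts. Without SAMD9 replicate 2, 1 gene rose and 4 fell. Without empty vector replicate 1, 4 rose, without empty vector replicate 2, 12 fell, and under total counts 1 rose and 13 fell.

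Of 15 targets of ATF4 and CHOP in stress and cell death, 14 were tested, since FGF21 had too few counts. There were 4 rises and 5 falls, with a median of -0.12. Together they were 64.3% of the genes tested in this list, against 27.5% called among all genes tested. The pro-apoptotic BH3-only genes PMAIP1 (NOXA) and BBC3 (PUMA) rose by 2.66 (SE 0.10) and 2.56 (SE 0.08). The angiogenic factor VEGFA fell by 0.62 (SE 0.07, adjusted p = 3.75e-07). CHAC1, which degrades glutathione, had -0.35 (SE 0.13, adjusted p = 0.0409) and lost its call with DESeq2 (0.144), without SAMD9 replicate 1 (0.0955), SAMD9 replicate 2 (0.163) or empty vector replicate 1 (0.456, log2 fold change -0.17). The number of falls was 2 when SAMD9 replicate 2 was left out, 3 when SAMD9 replicate 1 or empty vector replicate 1 was, 3 in DESeq2, and 9 under total counts.

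Of 12 aminoacyl-tRNA synthetase genes linked to ATF4, 1 rose and 7 fell, with a median of -0.20. Calls covered 66.7% of the list, against 27.5% of all genes tested, where 12.2% were called lower. WARS1, the tryptophan enzyme, which is also a known interferon-inducible gene, rose by 2.37 (SE 0.07, adjusted p = 3.43e-18). The largest falls were IARS1 (-0.32, SE 0.06, adjusted p = 0.00021) and GARS1 (-0.25, SE 0.07, adjusted p = 0.013). GARS1 lost its call without SAMD9 replicate 2 (adjusted p = 0.0792) or empty vector replicate 1 (0.273, log2 fold change -0.09), and stood at -0.39 without empty vector replicate 2. There were 2 falls without SAMD9 replicate 1, 1 without SAMD9 replicate 2, 3 without empty vector replicate 1 and 11 under total counts.

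The other arms of the unfolded protein response, run by ATF6 and XBP1, held 9 rises and 1 fall among 17 genes, with a median of 0.26. In this list 58.8% were called, against 27.5% of all genes tested, where 15.3% were called higher. XBP1 rose by 1.03 (SE 0.07, adjusted p = 3.7e-11) and HERPUD1, a factor of endoplasmic reticulum degradation, by 0.64 (SE 0.08). EDEM1 had -0.23 (SE 0.07, adjusted p = 0.0211), a call that ended without SAMD9 replicate 1 (0.13), SAMD9 replicate 2 (0.102) or empty vector replicate 1 (0.275, log2 fold change -0.12), whereas 3 genes were lower without empty vector replicate 2. Under total-count scaling 3 genes rose and 4 fell, and the median was 0.07. HSPA5 counts in this list and among the kinase regulators, so the 2 lists are not independent.

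**Figure D4:**
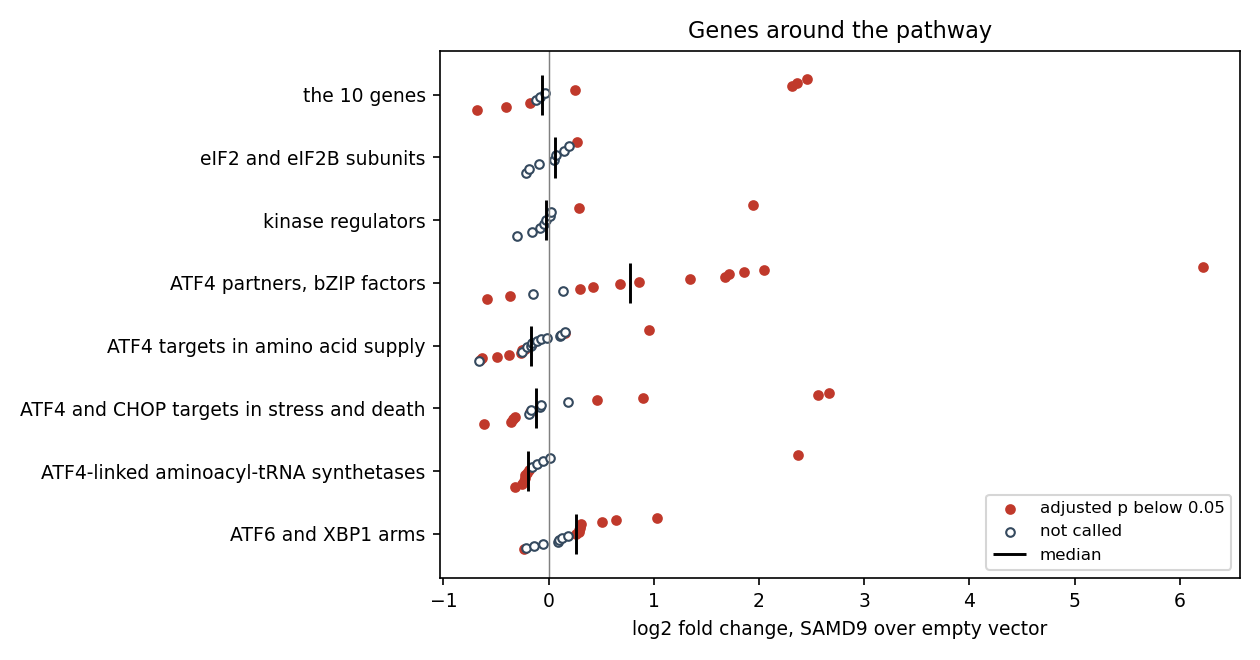
Log2 fold change, SAMD9 over empty vector, of the 10 genes and of 7 lists around them, 1 point for each gene tested, filled where the adjusted p was below 0.05, with a bar at the median. The list of ATF4 partners and bZIP factors has a median of 0.77, the amino acid supply and synthetase lists have medians of -0.17 and -0.20, and single genes such as WARS1 lie far from their list.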

How the data were processed

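The authors deposited, for each library, raw counts per Ensembl gene, with CPM and RPKM values per the file headers. The deposited CPM and RPKM values equalled scaled counts and were not tested. The submitters' processing notes list STAR 2.5.1a, featureCounts 1.4.6-p5 of Subread and bcl2fastq, and the build GRCh38. The strand setting and the annotation release are not given in the sources used. Symbols came from a name table (54836 IDs) and otherwise from GENCODE 29 (461 IDs). Titles gave the group and replicate number of each library. Nothing says that replicates were separate cultures, so a p-value covers only the spread among these libraries, which may be technical. Chi-square per degree of freedom between replicates was 5.00 (SAMD9) and 9.35 (empty vector), above sampling noise in both groups.

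The test was that of edgeR 4.0.16 (R 4.3.3; filterByExpr with minimum count 10 and minimum total 15, TMM, quasi-likelihood F-test, two-sided) over 19814 genes, with Benjamini-Hochberg adjustment over all of them. SE is the absolute log2 fold change over the square root of F. CPM in the text is TMM-normalised, and CPM per kilobase uses the exon length in the files. The fit was tested on simulated data. Alternatives were total-count and RLE scaling, DESeq2 1.42.0, no filter, the replicate number as a block, and leaving out each library. Lists were described by counts and medians, with no set test. The SE is larger for genes with low counts, so a share called also depends on level. The lists were not matched by level to all genes tested. The text names the 10 genes, of each list the 2 called genes with the highest and the 2 with the lowest log2 fold change, and the 3 genes (average log2 CPM at least 1, pseudocount 0.5) nearest to EIF2AK2, PPP1R15A and ATF3. A gene that this rule selects is not reported here. The genes and lists were chosen with earlier results of these data known. Promoter motifs were likewise chosen with these results known, and 2 of the 5 were shortened by 1 base after their matches had been seen.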

Additional observations from a re-analysis of the deposited data

How the results depend on the processing

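EIF2AK2, PPP1R15A, ATF3, EIF2AK4 and TRIB3 kept their direction and their call under every alternative run. Total-count scaling gave EIF2AK1 -0.22, EIF2AK3 -0.27, DDIT3 -0.31 (all called) and ATF4 0.063 (not called) on the log2 scale, turned SLC1A5 to -0.037, EIF2S1 to -0.12, PRKRA to -0.17 and MARS1 to -0.18, and called 3 genes of eIF2 and eIF2B and 5 kinase regulators. With DESeq2, PPP1R15B kept its value of -0.18 without a call, and 2 eIF2 and eIF2B genes and 1 regulator were called. Leaving out 1 library gave from -0.063 to 0.0026 for EIF2AK1, -0.18 to 0.027 for EIF2AK3, -0.22 to -0.13 for PPP1R15B, 0.20 to 0.31 for ATF4, -0.22 to -0.011 for DDIT3, -0.025 to 0.068 for PRKRA and -0.085 to 0.12 for MARS1. In these fits the group left with 1 library is assumed to vary like the other. The calls ranged from 0 to 2 for eIF2 and eIF2B, 2 to 4 for kinase regulators, 5 to 14 for amino acid supply and 2 to 11 for the synthetases. The cause of these changes was not tested.

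The replicate numbers were not shown to pair the libraries: deviations of same-numbered libraries correlated at 0.01 across 19814 genes, with 2 pairs. With the replicate block 5244 genes were called, against 5458 without it, and PPP1R15B stood at -0.18 (adjusted p = 0.0573). The other genes named from the lists were followed too, with ASNS, CEBPB, CEBPG, EIF2S1, PRKRA and MARS1 but without NUPR1. Of their values, 209 kept their direction and their side of the threshold, 25 lost the call, 2 gained one and 7 turned direction. Over all alternatives the adjusted p ranged from 0.00629 to 0.985 for EIF2AK1, 0.0434 to 0.917 for EIF2AK3, 7.14e-05 to 0.377 for PPP1R15B, 5.64e-07 to 0.439 for ATF4 and 0.0147 to 0.962 for DDIT3. The lowest count of any of the 10 genes in a library was 739.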
